A study of Mus musculus with 13 samples.

Results

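The 8 genes described here are the Dlx genes Dlx1 to Dlx6 and the Msx genes Msx1 and Msx2, out of 22367 protein-coding genes annotated on chromosomes 1 to 19, X and Y of the mouse genome. They were chosen by name with earlier results of these data known, although no measured value entered the rule. They were placed on the mm9 build by the GENCODE vM1 annotation. The 6 Dlx genes lie in 3 pairs whose members face each other, so that transcription of each gene runs towards its partner. Msx1 and Msx2 each lie alone. For each gene, the ChIP-seq peaks within 1 kb of the transcription start site and over the gene body were read from 5 lists of called peaks.

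Dlx and Msx genes encode homeodomain transcription factors of the embryo. Dlx1, Dlx2, Dlx5 and Dlx6 act in inhibitory neurons of the forebrain and in the jaw, Dlx3 in skin, hair, teeth and bone, and the Msx genes act with BMP signalling in teeth, palate, skull and limb. In embryonic stem cells such developmental genes are typically kept silent by Polycomb repressive complex 2 (PRC2), which methylates lysine 27 of histone H3 (H3K27me3), often over CpG islands, and AEBP2 is a zinc-finger protein that binds to the core of PRC2.

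The study asked where AEBP2 binds in mouse embryonic stem cells (mESCs) relative to PRC2 and its mark. Of 13 samples, 5 with a list of peaks were used, namely 2 replicates each for endogenous AEBP2 and H3K27me3 and 1 sample, without a replicate, for a tagged AEBP2. The inputs, SUZ12 and the cells with mutated Aebp2 were not analysed here. All 5 samples were labelled as wild type and as the male line 129/1 XY, grown with serum and LIF. Endogenous AEBP2 was precipitated with an antibody that the study raised itself. The labels name the antibody for the histone mark as anti-H3K27 without its methylation state, which was taken from the study's text. FS2-AEBP2 carries an N-terminal Flag-StrepII tag and was expressed from a pCAG plasmid in cells labelled wild type. The label differs from the methods, which give E14 as the line for the tagged protein, and its precipitation followed another protocol, so tag, expression level, cell line and protocol cannot be told apart. Nothing states whether the replicates came from separate cultures. Replicates 1 and 2 of H3K27me3 may be swapped, since the deposited names seem to disagree with the sample records, whose numbers are used throughout.

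The lists held 2877 and 6779 peaks for AEBP2 in replicates 1 and 2, 2884 for FS2-AEBP2, and 14112 and 9275 for H3K27me3. No read counts come with the peaks, so depth is unknown, intervals cannot be given, and a start site without a peak may still be bound below the calling threshold. The peak score has no stated scale and is given as the share of peaks of the same list with a lower score. With 2 lists per target, an exact permutation test between targets could not go below p = 0.33, so no test was made, and each count stands beside the same count over all protein-coding genes. Of 5 genes active in mESCs, Pou5f1, Nanog, Zfp42 and Esrrb had no peak within 1 kb of the start site in any list, while Klf4 had a peak of FS2-AEBP2 and of H3K27me3 replicate 1.

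All 8 genes carried H3K27me3 at the start site and all 8 carried AEBP2 in at least 1 endogenous list. A H3K27me3 peak lay within 1 kb of the start site of 8 of 8 genes in replicate 1, against 17% of all protein-coding genes, and of 8 of 8 in replicate 2, against 17.7%. AEBP2 peaks were called at 7 of 8 genes in replicate 1, against 9.08% of all genes, and at 8 of 8 in replicate 2, against 22.3%. FS2-AEBP2 peaks were called at 8 of 8 genes, against 6.53%. AEBP2 in both replicates was found at 7 of 8 genes, against 8.44% of all genes, and H3K27me3 in both at 8 of 8, against 15%. Msx2, which had no AEBP2 peak in replicate 1, was the only gene of the 8 that lacked a peak in any list. A peak in all 5 lists was thus found at 7 of 8 genes and at 4.57% of all genes.

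**Figure D1:**
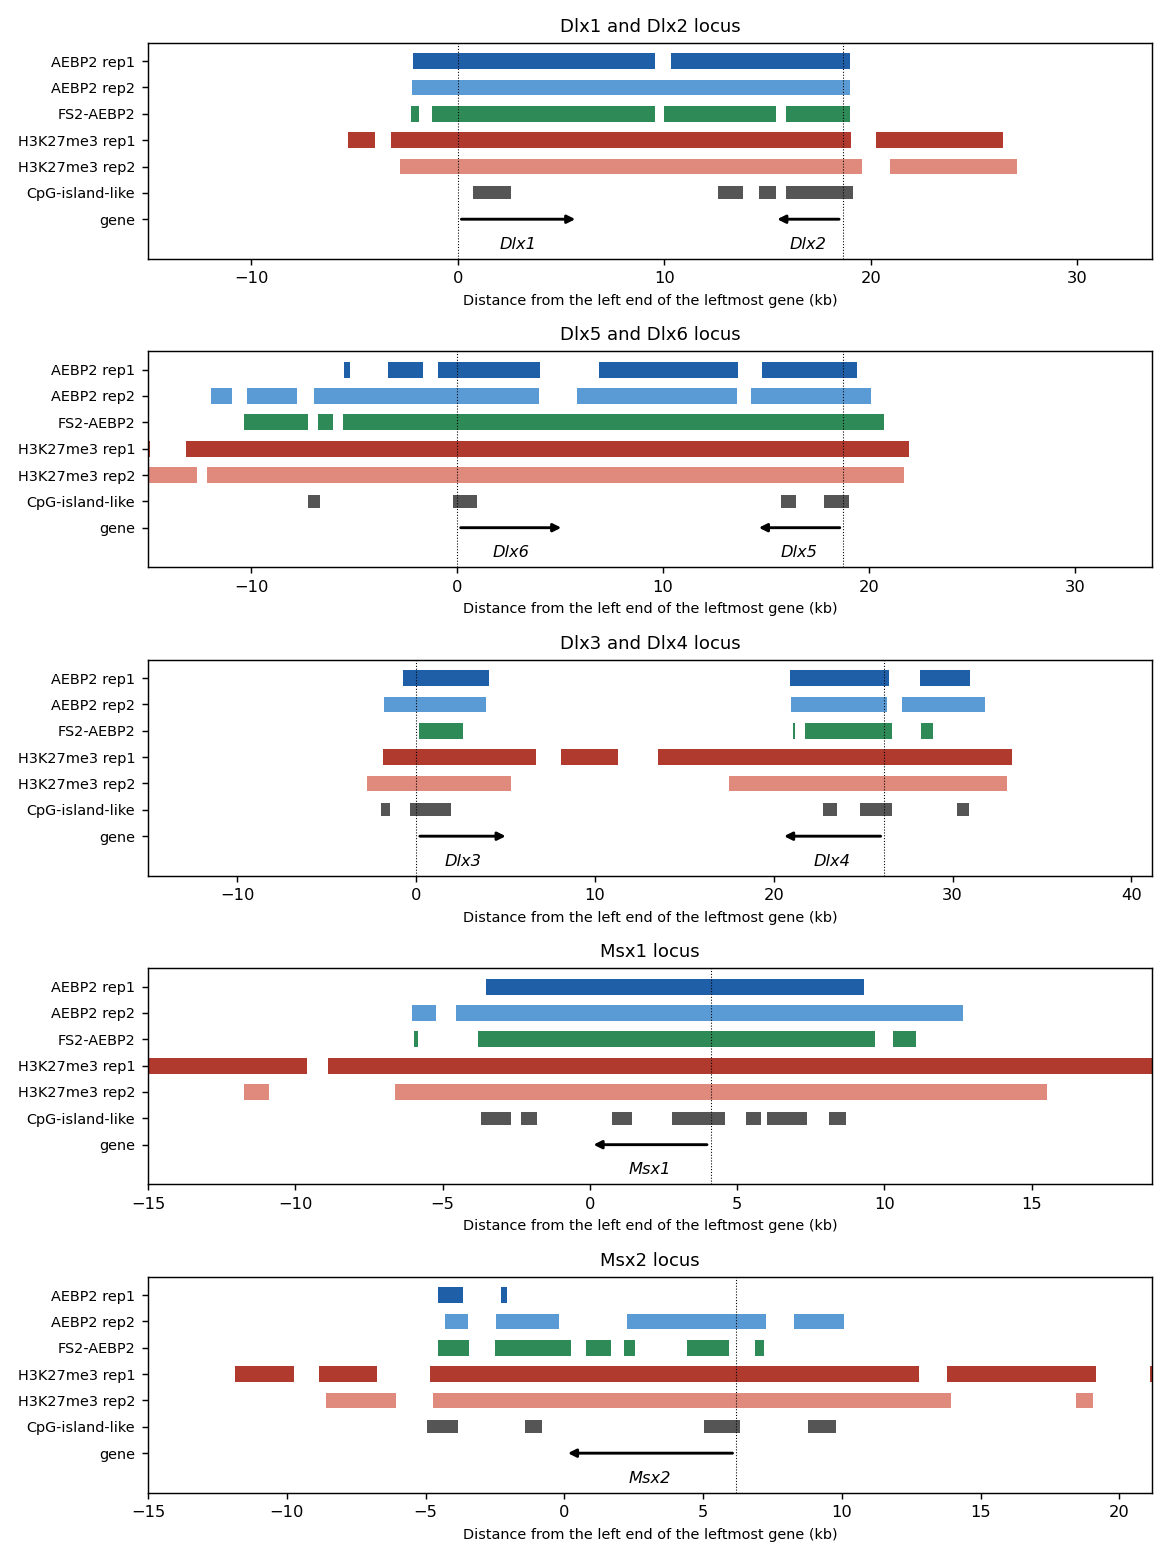
Peaks of the 5 lists (coloured bars), CpG-island-like regions (grey bars) and genes (arrows in the direction of transcription) at the 5 loci, against the distance from the left end of the leftmost gene in kb, with dotted lines at the start sites. H3K27me3 covers all 8 genes. AEBP2 and FS2-AEBP2 cover most of the stretch between the starts of Dlx1 and Dlx2 and of Dlx5 and Dlx6. They cover all of Msx1, and the space between Dlx3 and Dlx4 is open in the AEBP2 lists.

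The peaks lay over the whole genes and not only at their starts. Both H3K27me3 lists covered 100% of each of the 8 gene bodies. The median share of the gene covered was 91.6% in AEBP2 replicate 1, with a range from 0% at Msx2 to 100%, and 94.8% in AEBP2 replicate 2, with a range from 63.3% to 100%. It was 92.3% for FS2-AEBP2, with a range from 46.8% at Dlx3 to 100%. Over all protein-coding genes, with or without a peak, the median was 0% in every list. Between 1.35% and 4.84% of them, depending on the list, were covered over 50% or more of their length. The 8 genes are 3346 bp to 6194 bp long, so 1 broad peak can cover a whole gene.

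Dlx1 and Dlx2, which specify inhibitory interneurons, lie on chromosome 2, Dlx1 (ENSMUSG00000041911) on the plus strand at chr2:71366170-71372038 and Dlx2 (ENSMUSG00000023391) on the minus strand at chr2:71381466-71384811, with 18641 bp between their start sites. H3K27me3 was called as a single peak over both genes in each replicate, of 22290 bp and 22401 bp. AEBP2 replicate 2 likewise had 1 peak over both genes, of 21197 bp, which ranked 11 by length among the 6779 peaks of its list. AEBP2 replicate 1 had 2 peaks there, of 11745 bp and 8652 bp, that left out 778 bp between the genes. FS2-AEBP2 had 3 peaks from start site to start site, of 10773 bp, 5434 bp and 3087 bp. The stretch between the start sites was covered to 95.8% and 100% by AEBP2, to 95.0% by FS2-AEBP2 and to 100% by both H3K27me3 lists, so the lists differed in how they divided this domain more than in where they placed it.

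The FS2-AEBP2 peaks at this locus had the highest scores among the 8 genes. The peak between Dlx1 and the end of Dlx2 scored above 99.5% of its list, the peak over the Dlx2 start above 98.9% and the peak over the Dlx1 start above 96.9%. The endogenous AEBP2 peak over the Dlx1 start scored above 62.5% of its list in replicate 1 and above 95.3% in replicate 2. The peak over the Dlx2 start scored above 94.9% and 95.3%. Replicate 1 thus ranked the Dlx2 side of the domain above the Dlx1 side, whereas replicate 2 called both as 1 peak with 1 score.

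The end of the domain upstream of Dlx2 fell at nearly the same base in the AEBP2 lists. The peak of AEBP2 replicate 1 ended 353 bp upstream of the Dlx2 start, that of replicate 2 at 355 bp and that of FS2-AEBP2 at 357 bp. The H3K27me3 peaks ended at 405 bp and 943 bp, and H3K27me3 was called again further upstream, in peaks of 6138 bp and 6150 bp. The 683 bp in between, chr2:71385755-71386437, lay in no peak of any list. Tandem repeats of units of 1 to 4 bases made up 26.8% of that stretch and 1.39% of the 48642 bp of the locus. The gaps between the genes, of 778 bp in AEBP2 replicate 1 and 512 bp in FS2-AEBP2, held 0 bp of such repeats. The part of repeats in any of these gaps was not tested. Such closeness of peak ends was not general. Of 26 edges of AEBP2 replicate 1 peaks at the 5 loci, 4 had an edge of replicate 2 and 3 had an edge of FS2-AEBP2 within 50 bp. None had a H3K27me3 edge that close. The sequence around the shared end is shown because 3 separately called lists stop there, 5′ to 3′ on the plus strand, mm9 chr2:71385104-71385228, with the bases from the first to the last of the 3 ends, 71385164 to 71385168, in capitals.
Shared end upstream of Dlx2: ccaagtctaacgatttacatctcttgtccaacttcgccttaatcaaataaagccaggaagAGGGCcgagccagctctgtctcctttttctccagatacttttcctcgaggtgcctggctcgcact

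The sequence before the start site is shown for Dlx2 and Msx2, since they stand for different patterns, a start site inside a peak of every list and a start site without AEBP2 in replicate 1. Each runs 5′ to 3′ on the strand of the gene from 250 bases before to 50 bases after the GENCODE start, was read from mm9, and has its CG dinucleotides in capitals. The Dlx2 promoter (minus strand, chr2:71384762-71385061) holds 29 CG dinucleotides and the Msx2 promoter (minus strand, chr13:53568394-53568693) 7.
Dlx2: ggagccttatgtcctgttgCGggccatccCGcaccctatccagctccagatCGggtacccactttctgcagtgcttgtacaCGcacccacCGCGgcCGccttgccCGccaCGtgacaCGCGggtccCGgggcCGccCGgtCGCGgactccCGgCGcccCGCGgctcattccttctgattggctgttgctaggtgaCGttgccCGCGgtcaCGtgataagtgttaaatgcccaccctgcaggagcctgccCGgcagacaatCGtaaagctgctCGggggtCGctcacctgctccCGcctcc
Msx2: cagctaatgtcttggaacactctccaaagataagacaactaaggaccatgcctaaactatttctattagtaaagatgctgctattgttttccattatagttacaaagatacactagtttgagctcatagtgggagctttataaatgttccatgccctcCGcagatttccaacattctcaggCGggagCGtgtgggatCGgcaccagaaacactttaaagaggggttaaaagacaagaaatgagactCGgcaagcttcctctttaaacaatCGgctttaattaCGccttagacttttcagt

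For 5 of the other 6 promoters of this length the number of CG dinucleotides was 3 for Dlx1, 4 for Dlx6, 11 for Dlx5, 13 for Dlx4 and 29 for Msx1. RefSeq promoters matched the mm9 genome for Dlx1, Dlx2, Msx1 and Msx2. The RefSeq start equals the GENCODE start for Dlx2, but lies 1332 bp downstream for Dlx1, where the promoter holds 27 CG dinucleotides, and 294 bp downstream for Msx2, where it holds 22. For Dlx1 and Msx2 the annotations thus differ on the start base, while both start sites of each gene lay in the same called state in the endogenous AEBP2 and H3K27me3 lists. Read on both strands, the TATA-box letters TATAAA were present in 2 of 8 promoters, Dlx6 and Msx2, and in 13.4% of all promoters of this length. The letters CCAAT were present in 6 of 8, against 37.9%, the letters GGGCGG in 3 of 8, against 43.4%, and the homeodomain core TAATTG in 1 of 8, Dlx5, against 7.30%. These matches describe letters only.

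Dlx5 and Dlx6, which act in the lower jaw, limb and forebrain, lie on chromosome 6, Dlx6 (ENSMUSG00000029754) on the plus strand at chr6:6813334-6818568 and Dlx5 (ENSMUSG00000029755) on the minus strand at chr6:6827805-6832085, with 18751 bp between their start sites. H3K27me3 was again called as a single peak over both genes in each replicate, of 35101 bp and 33806 bp. FS2-AEBP2 had 1 peak of 26251 bp over both genes, built of 31 blocks and ranked 5 by length in its list. In contrast to FS2-AEBP2, each AEBP2 replicate had 3 separate peaks between the start sites, 1 over each gene and 1 between them. They covered 78.5% and 86.7% of the stretch, which FS2-AEBP2 and H3K27me3 covered to 100%.

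The AEBP2 replicates broke at nearly the same places in this pair. The peak over the Dlx6 start ended at 6817355 in replicate 1 and 6817328 in replicate 2, and the middle peak ended at 6826950 and 6826939. The gaps that followed were 2864 bp and 1821 bp across the 3′ end of Dlx6, beginning inside the gene, so that the AEBP2 lists covered 76.8% and 76.3% of Dlx6. The gaps after the middle peak were 1170 bp, reaching into the 3′ end of Dlx5, and 682 bp, just short of it. The GC content of the 4 gaps lay between 38.5% and 40.3%. At both places the gaps of the 2 replicates overlapped each other. Those across the 3′ end of Dlx6 held 281 bp of tandem repeats in each replicate, and those after the middle peak held 0 bp. The part of repeats in the gaps was not tested.

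The Dlx5 start had the lowest-scoring endogenous AEBP2 peaks among the 8 genes. In replicate 1 the peak of 4643 bp scored above 16.3% of its list, and in replicate 2 the peak of 5796 bp scored above 67.4%. The Dlx6 start on the other side of the domain had AEBP2 peaks of 4964 bp and 10921 bp that scored above 90.9% and 92.1%. The H3K27me3 peak that both genes shared scored above 85.1% and 93.3% of its lists. Within 1 domain of the mark, the 2 AEBP2 replicates therefore both ranked Dlx6 above Dlx5.

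Few pairs of facing genes had both starts in peaks, and fewer had both in a single peak. There were 944 pairs of neighbouring protein-coding genes that face each other with start sites at most 30 kb apart, the 3 Dlx pairs among them. Both start sites lay in 1 H3K27me3 peak for 5 of these pairs in replicate 1, or 0.53%, and for 6 in replicate 2, or 0.636%, and 2 of the 5 and 2 of the 6 were Dlx1 with Dlx2 and Dlx5 with Dlx6. In AEBP2 replicate 2 and for FS2-AEBP2 it was 1 pair each, or 0.106%, namely Dlx1 with Dlx2 in the former and Dlx5 with Dlx6 in the latter. AEBP2 replicate 1 had 0 such pairs, or 0%. Most of the 944 pairs could not share a peak, as their starts were not both in peaks. Both starts lay in a peak, the same or not, for 22 and 17 pairs in H3K27me3 replicates 1 and 2. For AEBP2 replicates 1 and 2 it was 7 and 34 pairs, and for FS2-AEBP2 5.

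Dlx3 and Dlx4 formed 2 domains instead of 1. They lie on chromosome 11, Dlx3 (ENSMUSG00000001510), a regulator of skin and tooth differentiation, on the plus strand at chr11:94981403-94986610, and Dlx4 (ENSMUSG00000020871) on the minus strand at chr11:95001770-95007577, with 26174 bp between their start sites. No list had a peak over both starts. The stretch between them was covered to 35.6% and 34.9% by AEBP2 and to 26.6% by FS2-AEBP2, with gaps of 16851 bp, 17048 bp and 18493 bp. H3K27me3 replicate 1 covered 85.8% of it in 3 peaks, with gaps of 1431 bp and 2278 bp, whereas replicate 2 covered 53.5% in 2 peaks with 1 gap of 12169 bp, so the replicates differed on whether the mark nearly bridged the pair. The gaps of 16851 bp, 17048 bp and 18493 bp had a GC content of 52.1%, 52.1% and 52.4%. Unlike the AEBP2 gaps at Dlx5 and Dlx6, they were thus not low in GC.

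At Dlx3 the mark had peaks of 8548 bp and 8095 bp, the shortest at any of the 8 start sites, and the AEBP2 peaks measured 4800 bp and 5748 bp. The FS2-AEBP2 peak of 2438 bp began 167 bp downstream of the start, within the first of 3 exons, and ran through coding sequence and introns. At Dlx4 the mark had longer peaks, of 19767 bp and 15521 bp. The AEBP2 peaks over the Dlx4 start, of 5547 bp and 5358 bp, scored above 47.2% and 86.4% of their lists, and the FS2-AEBP2 peak of 4852 bp scored above 57.5%. Dlx4 thus had the lowest FS2-AEBP2 score among the 8 genes although its H3K27me3 peaks scored above 98.2% and 98.6%.

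Msx1 (ENSMUSG00000048450), which acts in tooth and palate formation, lies on the minus strand at chr5:38211724-38215822, and each list had 1 peak over the whole gene. The AEBP2 peaks measured 12826 bp and 17222 bp, the FS2-AEBP2 peak 13487 bp, and the H3K27me3 peaks 34742 bp and 22165 bp. The AEBP2 peaks scored above 94.9% and 95.9% of their lists, the FS2-AEBP2 peak above 90.1%, and the H3K27me3 peaks above 97.3% and 98.9%. Msx1 was in these lists the gene with the longest AEBP2 peak in replicate 1 and the highest AEBP2 score in replicate 2 among the 8.

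Msx2 (ENSMUSG00000021469), which acts in skull and hair development, lies on the minus strand at chr13:53562250-53568443 and differed from Msx1 in every AEBP2 list. H3K27me3 peaks of 17615 bp and 18692 bp covered the gene and scored above 85.1% and 93.3% of their lists. AEBP2 replicate 1 covered 0% of the gene and had only 2 short peaks downstream of it within 15 kb, of 887 bp and 222 bp. AEBP2 replicate 2 had a peak of 5001 bp over the start that scored above 87.4%, and FS2-AEBP2 had 6 separate peaks at the locus, of 346 bp to 2710 bp. The FS2-AEBP2 peak nearest to the start measured 1510 bp and began 275 bp downstream of it, inside the first of 2 exons, and contains the RefSeq start. The pattern of Msx2, with AEBP2 in replicate 2, FS2-AEBP2 and H3K27me3 in both replicates but no AEBP2 in replicate 1, was shared by 217 of 22367 genes, or 0.97%. AEBP2 replicate 1 has 2877 peaks in all against 6779 in replicate 2, and the part of this difference in the missing peak was not tested.

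**Figure D2:**
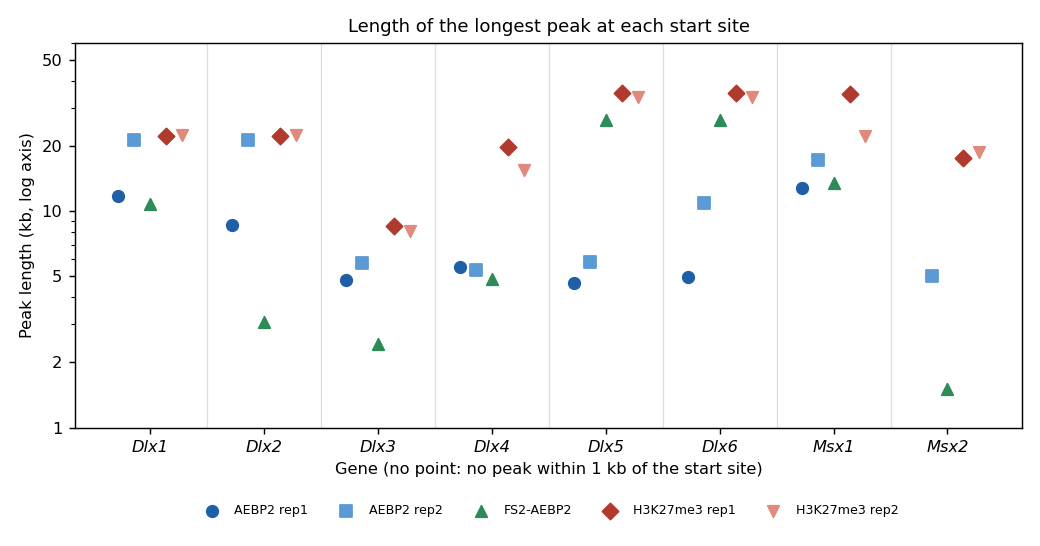
Length of the longest peak within 1 kb of each start site (kb, log axis), with 1 point per gene and list. H3K27me3 peaks are the longest at each gene, from 8095 bp at Dlx3 to 35101 bp at Dlx5 and Dlx6, whereas FS2-AEBP2 ranges from 1510 bp at Msx2 to 26251 bp at Dlx5 and Dlx6.

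Peaks at the 8 genes were long for their lists. The median of the longest peak at the start site was 5547 bp in AEBP2 replicate 1 over the 7 genes with a peak, with a range from 4643 bp to 12826 bp, against 1243.5 bp over all genes with a peak. It was 8358.5 bp in replicate 2, from 5001 bp to 21197 bp, against 872 bp, and 7812.5 bp for FS2-AEBP2, from 1510 bp to 26251 bp, against 1409 bp. For H3K27me3 it was 22290 bp and 22283 bp, against 4864 bp and 3970.5 bp. The genes of a pair can share a peak, which then counts for each of them. The order of the genes differed between targets, with Msx1 longest in AEBP2 replicate 1, Dlx1 and Dlx2 in replicate 2, and Dlx5 and Dlx6 for FS2-AEBP2 and in both H3K27me3 lists.

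**Figure D3:**
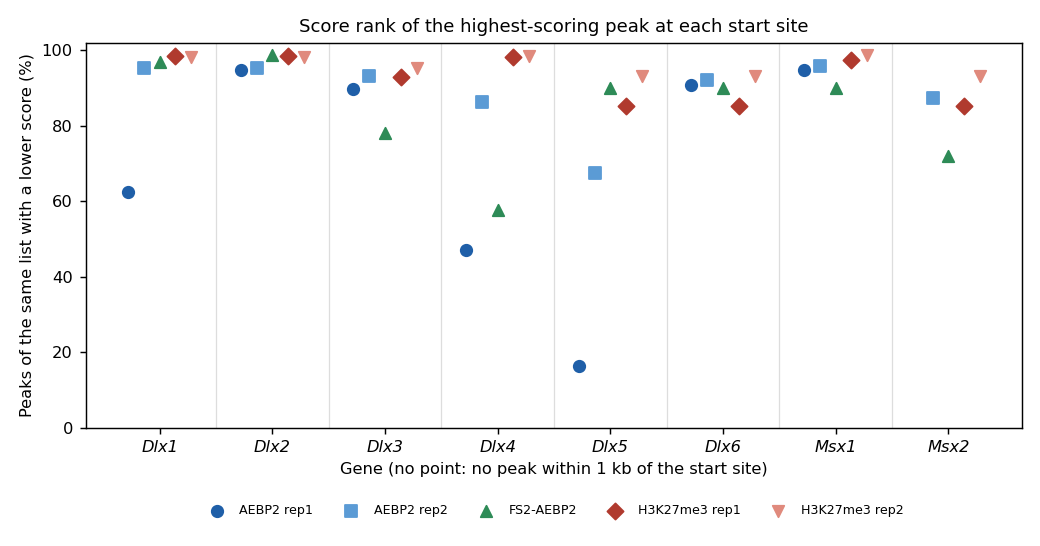
Score of the highest-scoring peak within 1 kb of each start site, as the percentage of peaks of the same list with a lower score, with 1 point per gene and list. H3K27me3 lies between 85.1% and 98.9% at all 8 genes, whereas AEBP2 replicate 1 falls to 62.5% at Dlx1, 47.2% at Dlx4 and 16.3% at Dlx5 and has no point at Msx2.

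The score ranks were high as well, with a wide spread in AEBP2 replicate 1. The median share of the list with a lower score was 89.7% in that replicate, from 16.3% to 94.9%, and 92.6% in replicate 2, from 67.4% to 95.9%. It was 90.1% for FS2-AEBP2, from 57.5% to 98.9%. For H3K27me3 it was 95.1%, from 85.1% to 98.4%, and 96.7%, from 93.3% to 98.9%. Over all genes with a peak the medians were 47.2% and 51.9% for AEBP2, 57.5% for FS2-AEBP2, and 79.4% and 71.6% for H3K27me3. Within the peaks, the files mark blocks, the stretches of a broad peak that the caller lists separately. The start base lay in a block at 4 of 7 genes with the start inside a peak in AEBP2 replicate 1, against 54.5% of all such genes, at 6 of 8 in replicate 2, against 65.1%, and at 2 of 6 for FS2-AEBP2, against 45.4%. It did so at 5 of 8 genes in H3K27me3 replicate 1, against 58.9%, and at 6 of 8 in replicate 2, against 48.3%, so the start bases were not set apart by blocks.

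AEBP2 lay inside the H3K27me3 domains without filling them. Windows ran from 15 kb before to 15 kb after each locus. In them, 100% of the DNA in AEBP2 peaks of either replicate and in FS2-AEBP2 peaks was also in peaks of both H3K27me3 replicates, at all 5 loci. The same share over all peaks of each list is not given here, so this overlap is not shown to be particular to these loci. In turn, AEBP2 replicate 1 covered 74.6% of the DNA with H3K27me3 in both replicates at Dlx1 and Dlx2, 53.2% at Dlx5 and Dlx6, 57.9% at Dlx3 and Dlx4, 55.8% at Msx1 and 5.50% at Msx2. In the same order of loci AEBP2 replicate 2 covered 77.5%, 81.2%, 69.4%, 78.6% and 49.3%. FS2-AEBP2 covered 71.9%, 87.4%, 35.5%, 62.6% and 34.6%. Msx2 had the lowest share in each of the 3 lists.

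The covered part of each domain was richer in GC. At Dlx5 and Dlx6 the GC content of DNA with H3K27me3 in both replicates was 51.5% where AEBP2 replicate 1 had a peak and 43.8% where it had none, 48.9% against 43.7% for replicate 2, and 48.5% against 43.8% for FS2-AEBP2. At Msx2 it was 52.6% against 45.2% for AEBP2 replicate 2. The GC content was higher with a peak than without at all 5 loci in AEBP2 replicate 1, AEBP2 replicate 2 and FS2-AEBP2, and the smallest difference was at Dlx1 and Dlx2 in replicate 2, with 52.5% against 50.0%. These are descriptions of neighbouring bases, which are not independent.

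CpG-island-like regions are joined windows of 500 bp whose GC content reaches 55% and whose CpG count reaches 0.65 of that expected from their base composition. Such a region lay within 1 kb of all 8 start sites, and within 1 kb of 12312 of the 22367 start sites in all. The 5 loci with their flanks held 24 such regions. AEBP2 replicate 1 overlapped 19 of them, against 15.2% of all such regions of the genome, AEBP2 replicate 2 overlapped 24, against 31.9%, and FS2-AEBP2 overlapped 21, against 12.4%. Both H3K27me3 lists overlapped all 24, against 25.5% and 27.1%. Among the 4925 regions of the genome with H3K27me3 in both replicates, the shares were 49.9% and 76.8% for AEBP2 and 47.2% for FS2-AEBP2. In turn, of all regions that AEBP2 overlapped, 2458 of 3135 in replicate 1 and 3784 of 6587 in replicate 2 had H3K27me3 in both replicates. For FS2-AEBP2 it was 2326 of 2570. At Msx1 all 7 regions had a peak in every list, whereas at Msx2 AEBP2 replicate 1 overlapped 1 of 4, AEBP2 replicate 2 overlapped 4 and FS2-AEBP2 overlapped 3. The region at the Msx2 start, of 1300 bp, was among those without AEBP2 in replicate 1.

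The start sites of the neighbouring genes mostly lacked peaks, as do those of most protein-coding genes. The nearest protein-coding gene on each side of the 5 loci gave 10 neighbours. Of these, 0 had a peak within 1 kb of the start site in AEBP2 replicate 1 or for FS2-AEBP2, and 1 in each other list. Over all protein-coding genes the shares were 9.08% and 22.3% in AEBP2 replicates 1 and 2 and 6.53% for FS2-AEBP2. They were 17% and 17.7% for H3K27me3, so the counts over 10 genes do not set the neighbours apart. Itga3, an integrin gene 43287 bp from Dlx3, had a peak in AEBP2 replicate 2 and in H3K27me3 replicate 2, and Gm5449, 52628 bp from Msx2, had one in H3K27me3 replicate 1. Metap1d, whose gene ends 2918 bp from Dlx1, had no peak at its start site in any list, although a H3K27me3 peak of 1333 bp in replicate 1 lay inside the gene.

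**Figure D4:**
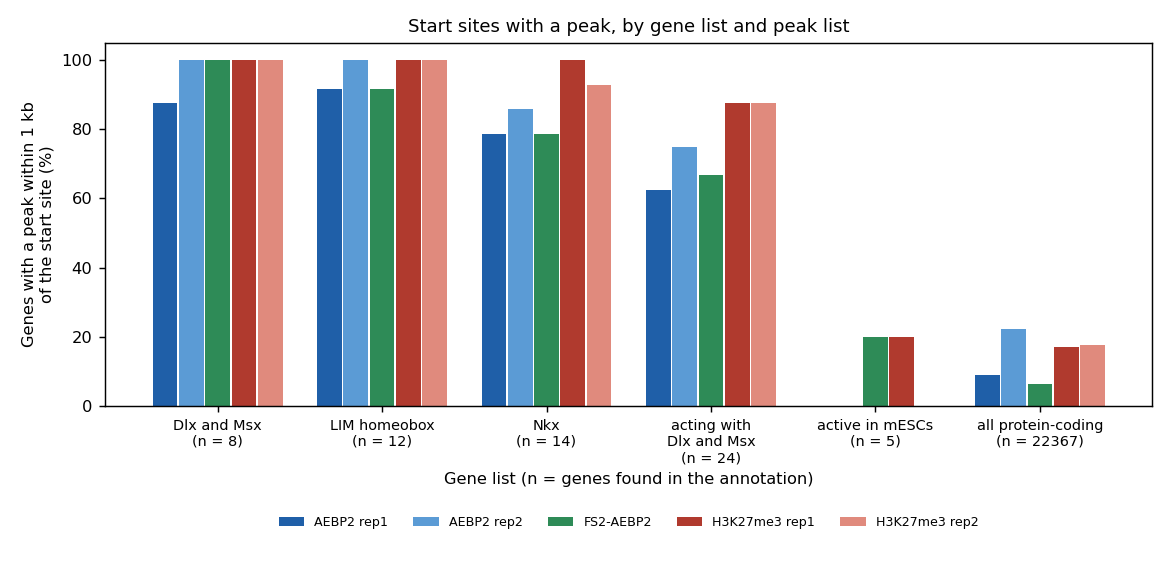
Percentage of genes with a peak within 1 kb of the start site, as bars from 0 for each of the 5 peak lists and 6 gene lists. The 8 Dlx and Msx genes, 12 LIM homeobox genes and 14 Nkx genes lie far above all 22367 protein-coding genes in every list, and the genes acting with Dlx and Msx lie between.

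Genes that act with Dlx and Msx varied in their peaks. Of 26 such genes listed by symbol, 24 were found, and the neural crest genes Tfap2a and Tfap2b were not. Lhx6 and Lhx8 are also counted among the LIM homeobox genes. A start-site peak was called at 15 of the 24 in AEBP2 replicate 1, against 9.08% of all protein-coding genes, and at 18 in AEBP2 replicate 2, against 22.3%. It was called at 16 for FS2-AEBP2, against 6.53%, and at 21 in each H3K27me3 list, against 17% and 17.7%. All 5 lists had a peak at 15 of the 24, against 4.57%. The 15 genes with a peak in all 5 lists included the signal genes Bmp2, Bmp7 and Fgf8, the neural crest factors Pax3, Pax7, Foxd3 and Zic1, the jaw factors Hand2, Barx1 and Gsc, and the forebrain factors Lhx6 and Lhx8. Axin2, Gad1 and Runx2 had no H3K27me3 peak in either replicate, although Gad2, which like Gad1 encodes a GABA-synthesising enzyme, had a peak in all 5 lists. Edn1 and its receptor gene Ednra, Snai2 and Sp7 had H3K27me3 in both replicates but no AEBP2 or FS2-AEBP2 peak. Bmp4, an inducer of Msx genes, had H3K27me3 in both replicates and AEBP2 in replicate 2 only, and Gbx2 shared the pattern of Msx2.

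Other homeobox families had counts close to those of Dlx and Msx. Of 12 LIM homeobox genes, 11 and 12 had an AEBP2 peak in replicates 1 and 2, 11 had FS2-AEBP2 and 12 had H3K27me3 in each list. Of 14 Nkx genes, 11 and 12 had AEBP2, 11 had FS2-AEBP2, and 14 and 13 had H3K27me3. A peak in all 5 lists was present at 10 of 12 LIM homeobox genes and 11 of 14 Nkx genes. The count was 7 of 8 for Dlx and Msx, and the share over all protein-coding genes was 4.57%. These family counts thus show nothing particular to Dlx and Msx.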

How the data were processed

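The 5 wild-type ChIP samples with a list of peaks were used. The authors aligned reads to mm9 and called peaks in each sample separately, and the submitters' processing notes name Bowtie, SAMtools, Picard and MACS2 (version 2.0.10.2). Thresholds, controls and duplicate handling are not given in the sources used here. Each deposited peak has a start, an end, blocks and a whole-number score of unstated scale, ranked within its list only. Peaks outside chromosomes 1 to 19, X and Y were left out, 2 in AEBP2 replicate 1 and 13 in H3K27me3 replicate 2.

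Python 3.11.15 (numpy 2.4.6, pandas 2.3.3, matplotlib 3.10.9) was used. A peak counted at a start site if it overlapped at least 1 bp within 1 kb of the GENCODE vM1 gene start. CpG-island-like windows were taken every 10 bp. Tandem repeats were runs of at least 20 bp. The overlap code was tested on simulated data. All 8 members are named, with the nearest gene on each side, and other genes by counts, naming those without a peak where most had one and examples of those with one. Members and lists were chosen with earlier results of these data known. The repeat, edge and block measurements and the RefSeq starts, credited to RefSeq promoters matched to mm9, were added after the data were seen. Alternatives were other windows, a stricter overlap, peaks at or above the median score, joined peaks, other start sites, either replicate and each replicate left out. Some items are not reported here.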

Additional observations from a re-analysis of the deposited data

How the results depend on the processing

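Of 82 alternative values for 16 results, 9 moved, that is a count by more than 1.5 times, a median by more than 1 SD of the 2 replicate lists, or, for FS2-AEBP2 with its single list, a median by any amount. Under this rule a median for AEBP2 or H3K27me3 could not move when 1 replicate was left out, however far apart the replicates lay. Counts of 7 or 8 genes out of 8 could move only by falling. The number that moved is thus not a measure of how stable these results are. No Dlx pair shared 1 AEBP2 peak in both replicates, but 1 pair did with peaks within 1 kb joined, without replicate 1, or with either replicate accepted. Leaving out 1 replicate gave 0 to 1 such pairs. Where both replicates were kept, a median for AEBP2 or H3K27me3 is here the mean of the medians of the 2 lists. With peaks within 1 kb joined, 2 Dlx pairs shared 1 FS2-AEBP2 peak. The median AEBP2 length then rose from 6952.75 bp to 11235 bp, that of FS2-AEBP2 to 18071 bp and that of H3K27me3 to 23324 bp. The median share of the gene covered by FS2-AEBP2 became 100%, as joining closes gaps by construction. With scores at or above the list median, the share of the gene covered by AEBP2 fell from 93.2% to 89.5%, and 6 genes kept AEBP2 at the start in both replicates, as Dlx5 lost its peak in replicate 1. Leaving out a replicate gave 7 to 8 genes with AEBP2, 7 to 8 with a peak in all lists, AEBP2 lengths of 5547 bp to 8358.5 bp and AEBP2 coverage of 91.6% to 94.8%, where only replicate 1 lacks Msx2. The start base itself lay in a FS2-AEBP2 peak at 6 genes, and at 7 with RefSeq starts, an alternative chosen after seeing the data. No paired analysis was possible because no result comes from a test. Unknown depth limits each statement on a missing peak.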

Other observations

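Msx3, a further Msx gene outside the 8 described above, had a peak within 1 kb of its start site in all 5 lists. The AEBP2 peaks measured 4198 bp and 4924 bp, the FS2-AEBP2 peak 2217 bp and the H3K27me3 peaks 19186 bp and 18650 bp. Its AEBP2 peak scored above 7.47% of its list in replicate 1 and above 74.3% in replicate 2. The rank was also higher in replicate 2 at each of the 7 genes with an AEBP2 peak in both replicates. Ranks are taken within lists of 2877 and 6779 peaks, so they do not compare the strength of binding between replicates. Dlx1 and Dlx2 have 1 peak in common in replicate 2.

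Non-coding genes start inside 3 of the loci, and were looked at after the peaks were seen. The start of Dlx1as, transcribed from the strand opposite to Dlx1, at 71375948 on chromosome 2, lay in the gap between the AEBP2 replicate 1 peaks and between FS2-AEBP2 peaks, and inside the AEBP2 replicate 2 and both H3K27me3 peaks. The start of Dlx6os1, at 6819533 on chromosome 6, lay in the gap of AEBP2 replicate 1 across the 3′ end of Dlx6 and inside the peaks of the other 4 lists. The start of A730090H04Rik, which overlaps Dlx4, lay inside a peak of all 5 lists. These statements are on the start base itself. Within 1 kb, the rule used for the coding genes, all 5 lists had a peak at each of the 3 non-coding starts.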
